A study of Drosophila melanogaster with 12 samples.

Results

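The vacuolar ATPase (V-ATPase) is a rotary proton pump. Its cytosolic V1 sector, made of subunits A to H, hydrolyses ATP, and its membrane V0 sector, made of subunits a, c, c'', d and e, carries protons across the membrane. The pump acidifies lysosomes, endosomes and synaptic vesicles in all animals, and in insects it also energizes ion transport across the plasma membranes of the Malpighian tubule and midgut. In Drosophila several subunits are encoded by more than 1 gene, so that a pump can be built from different paralogs.

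The V-ATPase subunit genes were taken as the genes whose symbol begins with Vha followed by a capital letter or a digit and that have a probe set annotated to them alone. This gave 31 of the 11982 genes with a probe set of their own, on 32 probe sets. Where a gene had 2 probe sets, which was the case for Vha16-1, the one with the higher mean was used. mRNA of whole adult females was measured on 12 Affymetrix Drosophila 2.0 arrays, 3 for each of 4 genotypes, and each array was loaded with RNA of 25 pooled females. Values are GC-RMA expression values on the log2 scale, so that a difference of 1 is a doubling.

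The 4 genotypes crossed the presence of the corpora allata, the gland that makes juvenile hormone (JH), with fertility. In CAKO (corpora allata knockout) females, Aug21-Gal4 drove UAS-GFP and UAS-NIPP1, an inhibitor of protein phosphatase, in the gland, which removes it in young adults. Removal of the gland can be incomplete in single females, and the arrays average over a pool. OvoD1 is a dominant mutation that arrests oogenesis at an early stage and leaves females sterile, so these females keep ovaries without growing eggs. Wildtype females had neither, OvoD1 females had the mutation with intact corpora allata, and CAKO;OvoD1 females had both. The series design gives the controls as wDah/w1118, while a legend of the study puts the fertile pair in wDAH and the sterile pair in w1118/wDAH, so a difference in background between fertile and sterile females cannot be told apart from OvoD1. The females were 15 days old by the sample labels and 14 days old by the growth protocol. The fertile comparison was CAKO against wildtype and the sterile comparison CAKO;OvoD1 against OvoD1. Sterile females were also compared with fertile females, once with corpora allata (OvoD1 against wildtype) and once without (CAKO;OvoD1 against CAKO).

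The floor of the scale was 2.13, and 38.2 to 38.7% of probe sets sat at it on the sterile arrays against 40 to 40.5% on the fertile arrays. Over the probe sets kept for testing, the array median was 0.37 lower in OvoD1 than in wildtype and 0.36 lower in CAKO;OvoD1 than in CAKO. The gene jhamt, which encodes a methyltransferase of JH synthesis, was 2.88-fold lower in the fertile and 5.08-fold lower in the sterile comparison. Of 11 listed muscle genes 9 were tested, and all 9, with 6 at 1.5-fold or more, were higher in OvoD1 than in wildtype at an adjusted p below 0.05. So were 7 of 8 tested neuron, 6 of 6 photoreceptor and 7 of 7 midgut genes, from lists of 10, 13 and 10. Lower were 12 of 12 female germ line and 11 of 11 tested follicle cell genes. Of all genes 32.9% were higher and 37.5% lower at this threshold.

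Of the 31 subunit genes, 21 lay above the floor on all 12 arrays and 10 lay within 0.2 of it on all 12. The genes above the floor were 8 of V1, 11 of V0 and 2 that encode the accessory protein Ac45 and its relative. They covered 13 of the 14 subunit classes. The exception was subunit A, the catalytic subunit, whose only gene here was Vha68-3, at the floor, while Vha68-1 and Vha68-2 were not analysed here. The other genes at the floor were Vha36-2 (subunit D), Vha14-2 (F), Vha100-3 (a), Vha16-2, Vha16-3 and Vha16-5 (c), VhaPPA1-2 (c''), VhaAC39-2 (d) and VhaM9.7-d (e). Each of these 9 belonged to a class with at least 1 other gene above the floor. Markers of the male germ line were at the floor for 13 of 15 genes. After the filter on low values 25 of the 31 genes were tested, 21 of them above the floor. The plot of all members shows each array.

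**Figure D1:**
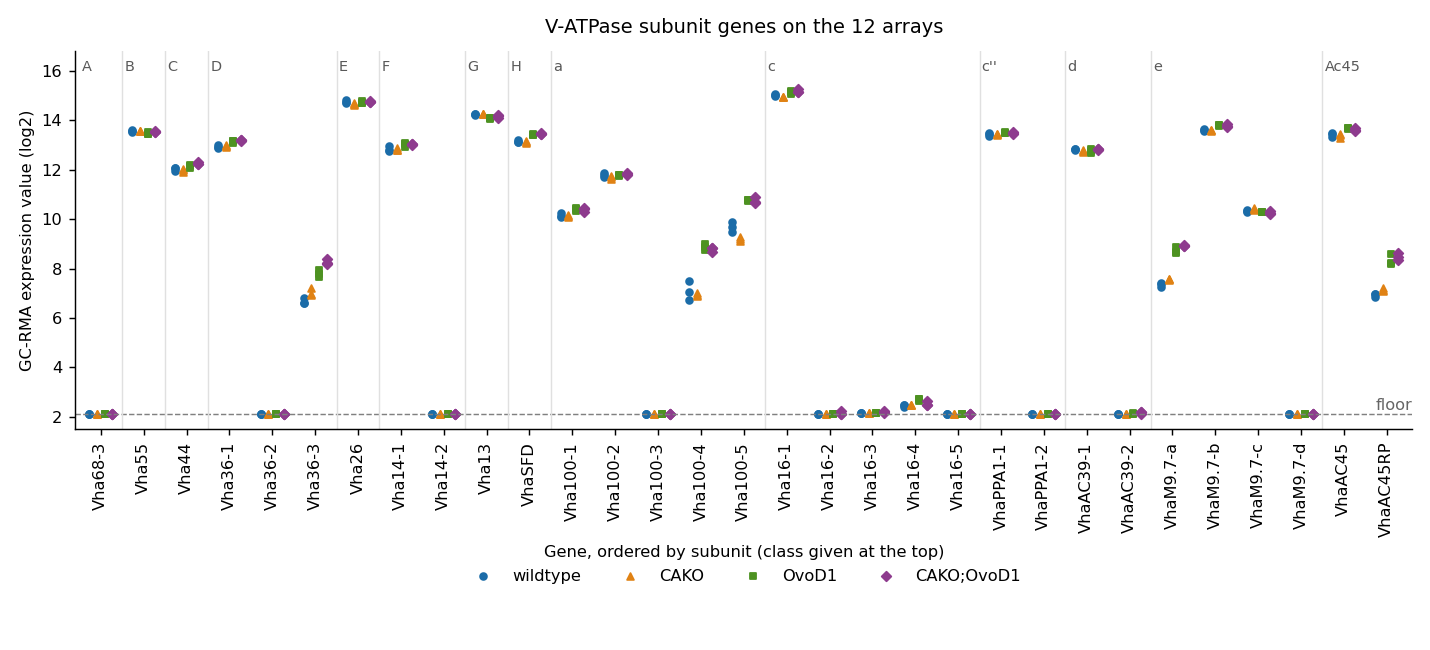
GC-RMA expression value (log2, vertical axis) of the 31 V-ATPase subunit genes (horizontal axis, ordered by subunit, class letters at the top) with 1 point per array and a colour and marker for each genotype; the dashed line is the floor at 2.13. Of the 31 genes, 21 lie above the floor on all arrays and 10 lie on it, and for Vha36-3, Vha100-4, Vha100-5, VhaM9.7-a and VhaAC45RP the OvoD1 and CAKO;OvoD1 points lie above all fertile points. Heights of different genes are not comparable.

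On the deposited scale the pump genes differed most between sterile and fertile females, and the large differences lay in 1 gene of subunit D, 1 of subunit e, 1 of the Ac45 pair and 2 of subunit a, beside paralogs that differed far less. Vha36-3 (subunit D), Vha100-4 and Vha100-5 (subunit a), VhaM9.7-a (subunit e) and VhaAC45RP (the relative of Ac45) were 2.14- to 3.42-fold higher in OvoD1 than in wildtype and 2.35- to 3.55-fold higher in CAKO;OvoD1 than in CAKO, and they were also higher under both other scalings of the arrays. The order of sizes did not hold under every scaling: after centring on muscle and photoreceptor genes Vha36-3 and Vha100-5 were 0.33 and 0.32 higher with corpora allata, while their paralogs Vha36-1 and Vha100-2 were at -0.57 and -0.79. The remaining 16 genes above the floor differed by -0.16 to 0.27 and by -0.14 to 0.33 on the log2 scale. A call required an adjusted p below 0.05 and at least a 1.5-fold difference. With this rule 5 of 25 genes were higher and 0 lower in each comparison. Over all 9968 genes tested, 25.0% were called higher and 28.5% lower with corpora allata, and 25.3% higher and 26.5% lower without. The 5 genes are 23.8% of the 21 above the floor, against 30.5% and 31.1% of all genes above the floor, so the share called higher lies near the background. In whole females fewer cells of a type and less RNA per cell cannot be told apart.

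Subunit D is part of the central stalk that turns inside V1. Vha36-3 had values of 6.63, 6.82 and 6.62 in wildtype, 7.20, 6.93 and 6.99 in CAKO, 7.78, 7.96 and 7.66 in OvoD1 and 8.41, 8.24 and 8.17 in CAKO;OvoD1. The 4 genotypes did not overlap, and every sterile array lay above every fertile array. The log2 difference was 1.11 (SE 0.11, adjusted p = 1.02e-05, limma) with corpora allata and 1.23 (SE 0.11, adjusted p = 5.27e-06) without. Its paralog Vha36-1 had values of 12.90, 12.93 and 13.01 in wildtype, 12.99, 12.95 and 12.91 in CAKO, 13.10, 13.18 and 13.17 in OvoD1 and 13.18, 13.19 and 13.19 in CAKO;OvoD1. Its sterile arrays also lay above its fertile arrays, on this scale by far less. The differences were 0.21 and 0.23 (SE 0.03 each, adjusted p = 0.000366 and 0.00015).

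Subunit a holds the channels through which protons enter and leave the membrane ring and directs the pump to its membrane, and 4 of its 5 genes were above the floor. Vha100-4, which is needed for acid secretion by the copper cells of the midgut, had values of 6.73, 7.07 and 7.50 in wildtype, 6.91, 6.94 and 7.02 in CAKO, 8.77, 8.86 and 8.99 in OvoD1 and 8.83, 8.67 and 8.85 in CAKO;OvoD1. Wildtype arrays were the most scattered, yet all lay below the sterile arrays. The difference was 1.77 (SE 0.16, adjusted p = 7.26e-06) with corpora allata and 1.83 (SE 0.16, adjusted p = 6.4e-06) without. Vha100-5 had values of 9.47, 9.68 and 9.88 in wildtype, 9.27, 9.18 and 9.12 in CAKO, 10.79, 10.77 and 10.74 in OvoD1 and 10.68, 10.64 and 10.89 in CAKO;OvoD1. Sterile arrays were the higher ones here too, and CAKO arrays were the lowest of all. The difference was 1.10 (SE 0.10, adjusted p = 6.94e-06) with corpora allata and 1.55 (SE 0.10, adjusted p = 7.74e-07) without.

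The other genes of subunit a differed less on the deposited scale. Vha100-1, the form of neurons that acts at synaptic vesicles, had values of 10.10, 10.25 and 10.14 in wildtype, 10.11, 10.16 and 10.14 in CAKO, 10.45, 10.35 and 10.40 in OvoD1 and 10.44, 10.28 and 10.41 in CAKO;OvoD1. The sterile arrays were narrowly above the fertile ones. The differences were 0.23 and 0.24 (SE 0.05 each, adjusted p = 0.00237 and 0.002). Vha100-2, which lies next to Vha100-4 on the chromosome with 0 protein-coding genes between them in the RefSeq table, had values of 11.71, 11.88 and 11.78 in wildtype, 11.73, 11.72 and 11.61 in CAKO, 11.74, 11.81 and 11.77 in OvoD1 and 11.82, 11.77 and 11.88 in CAKO;OvoD1. Wildtype and OvoD1 arrays overlapped, whereas CAKO arrays lay below CAKO;OvoD1 arrays. The differences were -0.02 (SE 0.05, adjusted p = 0.847) and 0.14 (SE 0.05, adjusted p = 0.0398), and the second lost its adjusted p below 0.05 when any of 8 of the 12 arrays was left out. After centring on muscle and photoreceptor genes Vha100-1 and Vha100-2 were lower in sterile females, at -0.54 and -0.79 with and -0.63 and -0.73 without corpora allata, where Vha100-5 was at 0.32 and 0.68.

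Subunit e is a small membrane protein of V0, with 3 of its 4 genes above the floor. VhaM9.7-a had values of 7.40, 7.26 and 7.38 in wildtype, 7.58, 7.58 and 7.54 in CAKO, 8.67, 8.87 and 8.64 in OvoD1 and 8.92, 8.94 and 8.93 in CAKO;OvoD1. No genotype overlapped with another. The differences were 1.38 (SE 0.06, adjusted p = 5.97e-08) and 1.37 (SE 0.06, adjusted p = 7.39e-08). VhaM9.7-b had values of 13.60, 13.65 and 13.58 in wildtype, 13.58, 13.62 and 13.60 in CAKO, 13.78, 13.81 and 13.80 in OvoD1 and 13.73, 13.85 and 13.78 in CAKO;OvoD1, with differences of 0.19 and 0.18 (SE 0.03 each, adjusted p = 0.000426 and 0.000484). VhaM9.7-c had values of 10.39, 10.35 and 10.31 in wildtype, 10.37, 10.44 and 10.42 in CAKO, 10.31, 10.29 and 10.29 in OvoD1 and 10.27, 10.22 and 10.34 in CAKO;OvoD1. It was the only gene of the 3 whose sterile arrays were not the higher ones, and without corpora allata they lay below the fertile arrays. The differences were -0.05 (SE 0.03, adjusted p = 0.238) and -0.14 (SE 0.03, adjusted p = 0.00599).

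Ac45 is an accessory protein that binds V0 and takes part in assembling and sorting the pump in other animals. VhaAC45RP had values of 6.85, 6.96 and 6.98 in wildtype, 7.23, 7.09 and 7.13 in CAKO, 8.17, 8.60 and 8.24 in OvoD1 and 8.46, 8.37 and 8.64 in CAKO;OvoD1. All sterile arrays were above all fertile arrays. The differences were 1.41 (SE 0.11, adjusted p = 3.01e-06) and 1.34 (SE 0.11, adjusted p = 4.67e-06). VhaAC45 had values of 13.34, 13.48 and 13.45 in wildtype, 13.44, 13.42 and 13.27 in CAKO, 13.68, 13.68 and 13.64 in OvoD1 and 13.59, 13.62 and 13.68 in CAKO;OvoD1, and its differences were 0.24 and 0.25 (SE 0.05 each, adjusted p = 0.00175 and 0.0016). Both genes were higher in sterile females on the deposited scale, VhaAC45 by a much smaller amount and with the opposite sign after centring on muscle and photoreceptor genes.

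**Figure D2:**
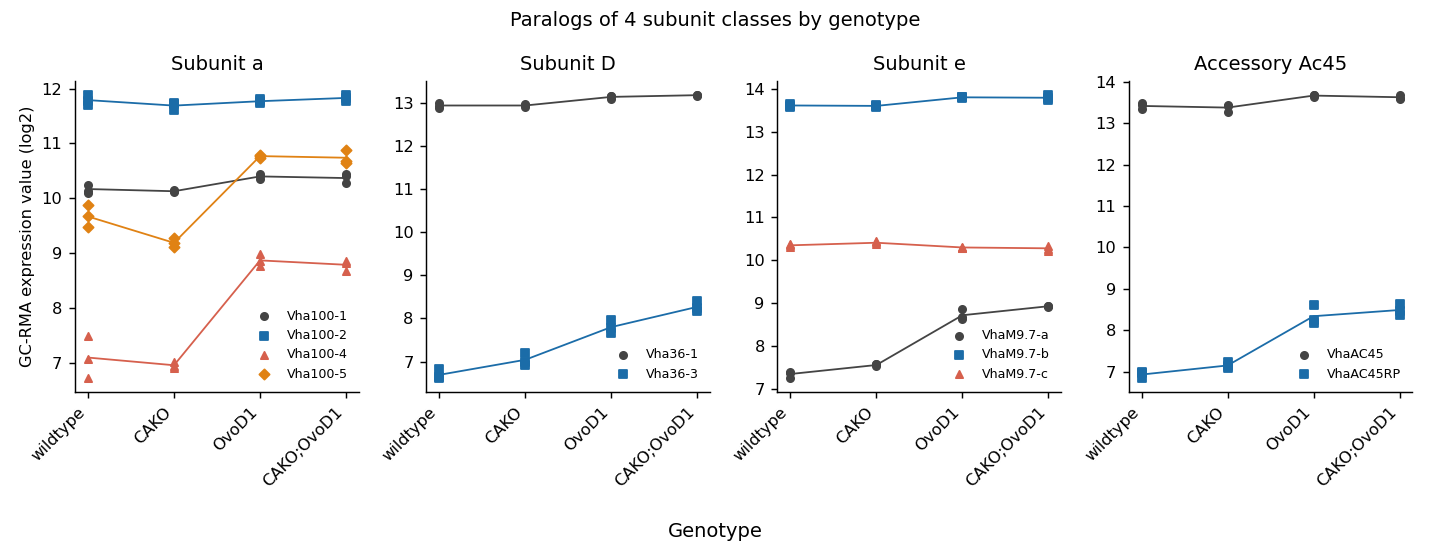
GC-RMA expression value (log2, vertical axis) by genotype (horizontal axis) for the paralogs above the floor in subunits a, D and e and in the accessory Ac45 pair; points are arrays, lines join genotype means, and the vertical axes differ between panels. Vha100-4, Vha100-5, Vha36-3, VhaM9.7-a and VhaAC45RP step up in the sterile genotypes by 1.10 to 1.83, while their paralogs differ by -0.14 to 0.25 on the deposited scale; after centring on muscle and photoreceptor genes the 5 genes stay higher and the paralogs are lower.

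A difference between 2 genes on the same array does not change when all values of that array shift by the same amount. An effect of normalization that depends on the size of a value does not cancel in it. To remove a shared shift, each paralog was also set against 1 reference paralog of its class. This comparison was chosen after the values had been seen. For each of 8 pairs the difference between the paralogs was compared between the 6 sterile and 6 fertile arrays in an exact permutation test, two-sided, with labels exchanged within each state of the corpora allata. The 400 arrangements cannot give a p below 0.005, and the p-values are not adjusted for the 8 pairs. Relative to its reference, Vha100-4 was 1.74 higher in sterile females against Vha100-2, and Vha100-5 was 1.26 higher (exact p = 0.005 each). VhaM9.7-a was 1.19 higher against VhaM9.7-b, VhaAC45RP 1.13 higher against VhaAC45 and Vha36-3 0.95 higher against Vha36-1 (exact p = 0.005 each). In these 5 pairs no sterile array overlapped with a fertile array. These 5 genes had been picked for their rise on the same arrays, so the p adds no separate support for it.

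The other 3 pairs differed by less. VhaM9.7-c relative to VhaM9.7-b differed by -0.28 (exact p = 0.005), also without overlap. Vha100-1 was 0.18 higher relative to Vha100-2 (exact p = 0.015), with overlapping arrays. Vha16-4 relative to Vha16-1 differed by 0.12 with and by -0.18 without corpora allata, opposite ways, so that their average of -0.03 (exact p = 0.6) gives no direction, and the reference Vha16-1 has another probe set that went the opposite way. A difference of this kind gives unequal change in the values of 2 paralogs and not that either of them stayed the same. The 5 genes that rose had wildtype means of 6.69 to 9.67, and their references 11.79 to 13.61. Unequal change of the RNA therefore cannot be told apart from an effect of normalization that depends on the size of a value.

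The classes with a single gene above the floor, or with no gene that rose by 1.5-fold, differed little on the deposited scale. In V1, VhaSFD, which encodes the regulatory subunit H, had values of 13.13, 13.12 and 13.19 in wildtype, 13.18, 13.07 and 13.12 in CAKO, 13.42, 13.40 and 13.43 in OvoD1 and 13.43, 13.44 and 13.50 in CAKO;OvoD1. Its sterile arrays lay above its fertile arrays, with differences of 0.27 and 0.33 (SE 0.03 each, adjusted p = 3.32e-05 and 8.02e-06). Vha13, the peripheral stalk subunit G, had values of 14.22, 14.24 and 14.25 in wildtype, 14.25, 14.26 and 14.24 in CAKO, 14.05, 14.09 and 14.10 in OvoD1 and 14.11, 14.16 and 14.23 in CAKO;OvoD1. It went the other way on the deposited scale, with every sterile array below every fertile array of the same corpora allata state. Its differences were -0.16 and -0.08 (SE 0.03 each, adjusted p = 0.00114 and 0.0336), the second was lost without any 1 of 5 arrays, all CAKO or CAKO;OvoD1, and both turned positive after median centring, at 0.22 and 0.28.

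Vha44, which encodes subunit C, the part that leaves the pump when V1 and V0 come apart, had values of 12.07, 12.08 and 11.97 in wildtype, 12.02, 11.90 and 11.98 in CAKO, 12.18, 12.09 and 12.16 in OvoD1 and 12.23, 12.22 and 12.31 in CAKO;OvoD1. Sterile arrays were above fertile arrays in both comparisons, narrowly so with corpora allata. The differences were 0.10 (SE 0.04, adjusted p = 0.0753) and 0.28 (SE 0.04, adjusted p = 0.000301). Vha14-1, subunit F of the central stalk, had values of 12.81, 12.95 and 12.78 in wildtype, 12.82, 12.88 and 12.82 in CAKO, 12.93, 13.07 and 13.03 in OvoD1 and 13.03, 13.05 and 13.00 in CAKO;OvoD1. Arrays overlapped with corpora allata and not without. The differences were 0.16 (SE 0.05, adjusted p = 0.0171) and 0.19 (SE 0.05, adjusted p = 0.00929), and the first was lost without wildtype replicate 1 or 3 or OvoD1 replicate 2 or 3. Vha55, the nucleotide-binding subunit B, and Vha26, the peripheral stalk subunit E, had no adjusted p below 0.05 in any of the 5 contrasts, with differences between sterile and fertile females of -0.09 to 0.09.

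In V0, Vha16-1 encodes the main proteolipid of the proton-carrying ring, subunit c. It had values of 15.03, 15.00 and 15.05 in wildtype, 14.94, 14.96 and 14.95 in CAKO, 15.07, 15.17 and 15.16 in OvoD1 and 15.16, 15.14 and 15.27 in CAKO;OvoD1. Its differences were 0.11 (adjusted p = 0.0319, lost without wildtype replicate 1 or 2 or OvoD1 replicate 2 or 3) and 0.24 (adjusted p = 0.00037). The other probe set of the same gene went the opposite way, with means of 13.83 in wildtype, 13.82 in CAKO, 13.65 in OvoD1 and 13.49 in CAKO;OvoD1 and differences of -0.18 (adjusted p = 0.0447) and -0.33 (adjusted p = 0.00204). No direction is therefore given for Vha16-1. Vha16-4 had values of 2.48, 2.42 and 2.47 in wildtype, 2.48, 2.49 and 2.48 in CAKO, 2.65, 2.71 and 2.71 in OvoD1 and 2.49, 2.49 and 2.66 in CAKO;OvoD1, all close to the floor, with differences of 0.23 (adjusted p = 0.000816) and 0.06 (adjusted p = 0.246). VhaPPA1-1 (c'') and VhaAC39-1 (d) had no adjusted p below 0.05 in any of the 5 contrasts, with differences between sterile and fertile females of -0.06 to 0.06. Of the genes at the floor, Vha16-3 and VhaAC39-2 passed an adjusted p of 0.05 without corpora allata with differences of 0.06 and 0.04, sizes that cannot be read as a level this near the floor.

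By the adjusted p alone, 13 of 25 genes were higher and 1 lower in OvoD1 than in wildtype on the deposited scale, where 32.9% and 37.5% of all genes were. Without corpora allata 16 were higher, 14 of them above the floor, and 2 lower, against 34.4% and 35.2%. The median difference of the 21 genes above the floor was 0.19 with and 0.23 without corpora allata, beside -0.05 and -0.00 for the 7924 genes above the floor, and the quartiles of those genes were -0.97 and 0.85 with and -0.89 and 0.86 without. All 16 genes other than the 5 paralogs lay between these quartiles. Arrays did not overlap for 13 genes higher and 1 lower with corpora allata, where 35.2% and 38.8% of all genes did not, and for 17 higher and 2 lower without, against 37.2% and 36.8%.

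**Figure D3:**
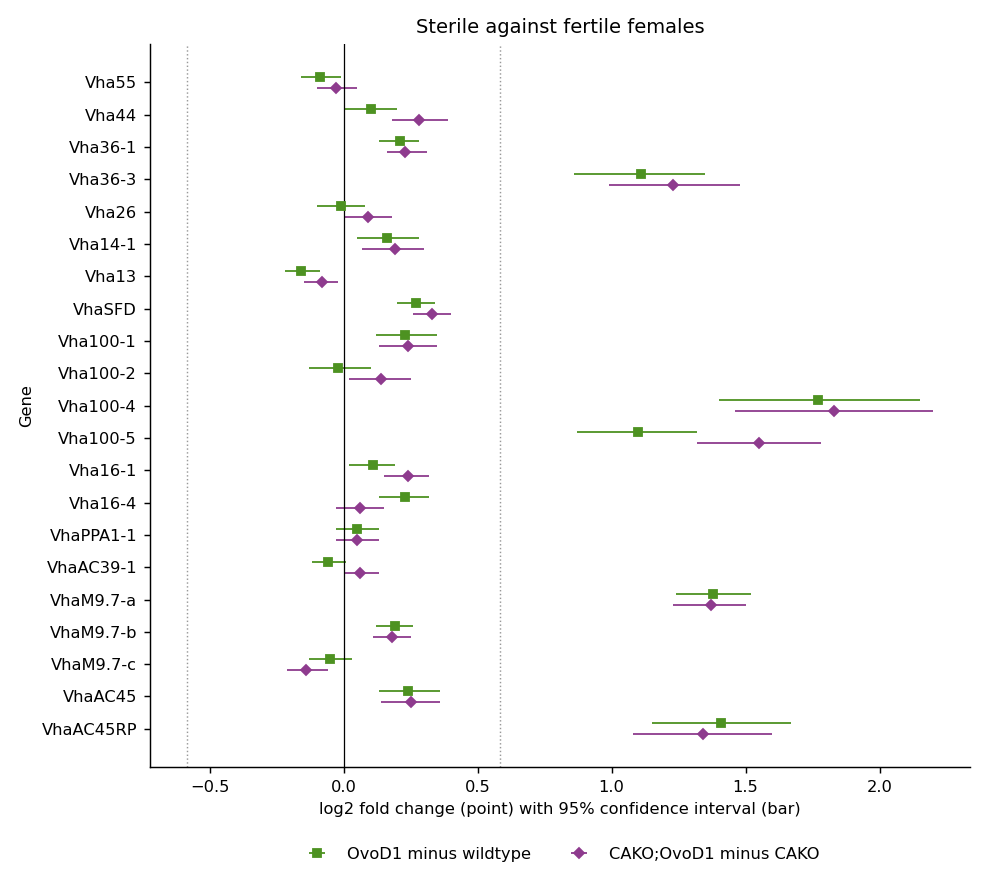
Log2 fold change (horizontal axis) of the 21 genes above the floor (vertical axis, in subunit order) for OvoD1 minus wildtype and CAKO;OvoD1 minus CAKO on the deposited scale; points are limma estimates, bars 95% confidence intervals, and dotted lines 1.5-fold. The intervals of 5 genes lie beyond the upper dotted line in both comparisons and 16 genes lie between -0.16 and 0.33, all of them below 0 after centring on muscle and photoreceptor genes.

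These small differences depended on how the arrays were scaled. Centring each array on its median over the probe sets kept moved every OvoD1 difference by 0.37 with and 0.36 without corpora allata, and the shifts were -0.78 and -0.87 with the mean of 15 muscle and photoreceptor genes as the centre. After the first the other 16 genes were higher in sterile females, at 0.22 to 0.64 and 0.22 to 0.69, and after the second they were lower, at -0.93 to -0.50 and -1.0 to -0.53, in each case with an adjusted p below 0.05 for all 16. The 5 paralogs were higher in sterile females under all 3 scalings, at 0.32 to 1.00 with and 0.37 to 0.96 without corpora allata after centring on muscle and photoreceptor genes, where 3 and 2 of them still passed 1.5-fold.

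**Figure D4:**
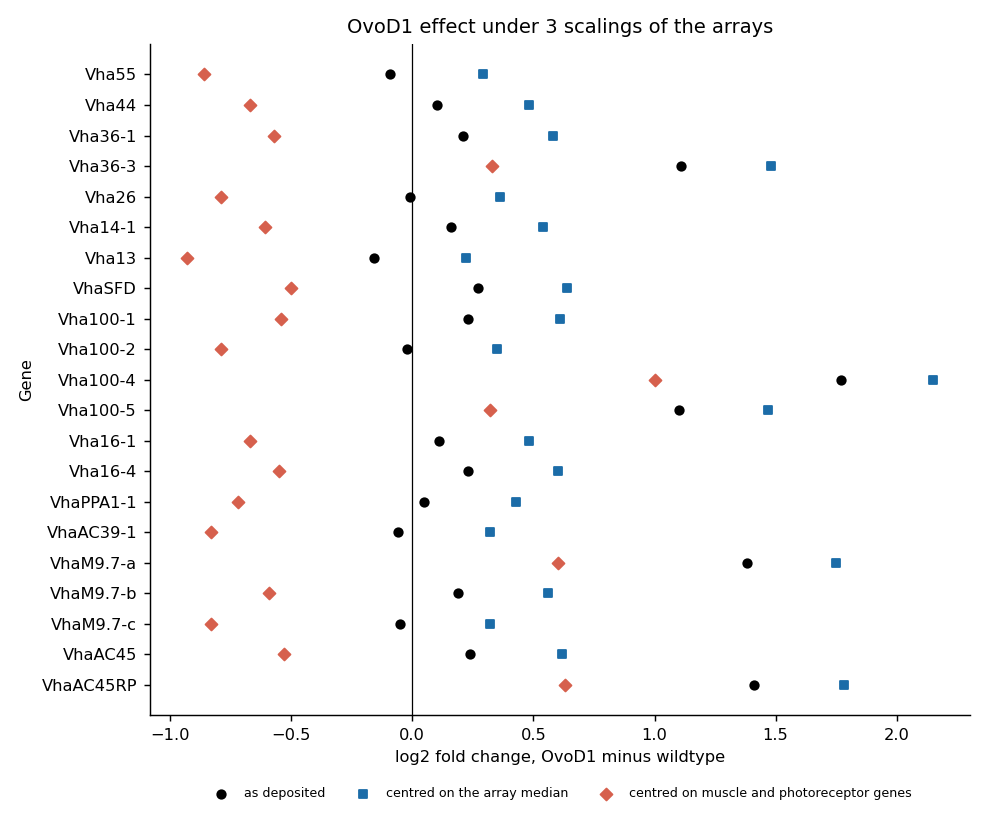
Log2 fold change of OvoD1 minus wildtype (horizontal axis) for the 21 genes above the floor (vertical axis) with the deposited values, after centring each array on its median, and after centring on 15 muscle and photoreceptor genes. Vha36-3, Vha100-4, Vha100-5, VhaM9.7-a and VhaAC45RP lie above 0 under all 3 scalings, and the other 16 genes lie at 0.22 to 0.64 under the second and at -0.93 to -0.50 under the third.

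Most markers of the Malpighian tubule and midgut, tissues rich in the pump, were higher in sterile females. So were most tested muscle, photoreceptor, neuron and fat body genes, by smaller median amounts. With corpora allata the median log2 difference was 1.83 for the tubule and 1.99 for the midgut list. It was 0.64 for muscle, 0.83 for photoreceptor, 0.98 for neuron and 0.44 for fat body genes. Without corpora allata the medians were 1.55 and 1.46, against 0.64, 1.19, 1.03 and 0.46. Of the 7 tested fat body genes 2 lay at the floor. Of 6 Malpighian tubule genes, 5 were higher and 1 lower by 1.5-fold in OvoD1 than in wildtype, where 25.0% and 28.5% of all genes were. Their summed level (log2 of the sum of linear values) was 11.80 to 12.13 in wildtype, 11.68 to 11.89 in CAKO, 12.91 to 13.00 in OvoD1 and 12.87 to 12.98 in CAKO;OvoD1. Of 7 midgut genes, 5 were higher and 0 lower by 1.5-fold, against the same shares of all genes. Their summed levels were 16.34 to 16.45, 16.37 to 16.45, 16.98 to 17.01 and 16.84 to 16.91 in the same order. Summed female germ line markers went from 15.44 to 15.56 in wildtype to 10.69 to 10.88 in OvoD1, and summed follicle cell markers from 16.70 to 17.41 to 8.29 to 9.11. No gene of the tubule, midgut or follicle cell lists lay at the floor on all arrays. The part of tissue composition in the differences of the 5 paralogs was not tested.

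On the deposited scale the mRNA of the 21 genes above the floor differed by -0.48 to 0.35 in the fertile knockout comparison. In the sterile one it differed by -0.14 to 0.48. In fertile and in sterile females 0 of 25 genes were called higher and 0 lower by limma, where 3.89% and 2.30% of all genes were called in the fertile and 2.26% and 2.19% in the sterile comparison. A count of 0 among 25 lies near these shares. At an unadjusted p below 0.05, 2 were higher and 1 lower in the fertile comparison (13.8% and 14.5% of all genes), and 6 were higher, 4 of them above the floor, and 1 lower in the sterile comparison (14.9% and 13.1%). The methods' t-test with 1.5-fold also called 0. Arrays did not overlap for 3 genes higher and 3 lower in the fertile comparison, where 16.1% and 16.7% of all genes did not, and for 6 higher and 0 lower in the sterile comparison, against 16.3% and 14.1%. The median difference of the 21 genes was -0.01 and 0.04, beside -0.00 and 0.01 for all genes above the floor. Among the 16 genes outside the 5 paralogs, values ran from -0.10 to 0.06 in the fertile and from -0.14 to 0.11 in the sterile comparison, and 0 of them had an adjusted p below 0.05. At an unadjusted p below 0.05 they counted 0 in the fertile comparison and 2 higher (Vha13 and Vha44) and 1 lower (Vha16-4) in the sterile comparison.

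By the adjusted p alone 1 gene was higher and 1 lower in the fertile comparison, where 8.03% and 7.34% of all genes were. Vha100-5 was the lower one, with all 3 CAKO arrays below all 3 wildtype arrays, a difference of -0.48 or 1.4-fold (SE 0.10, adjusted p = 0.0132). It ranged from -0.59 to -0.38 when single arrays were left out, with an adjusted p between 0.00393 and 0.0497. In a fit of only the 2 genotypes its adjusted p was 0.0764, and after centring on muscle and photoreceptor genes the difference was -0.73. In the sterile comparison the same gene differed by -0.03 (SE 0.10, 95% confidence interval -0.26 to 0.20, adjusted p = 0.936), with overlapping arrays. The 2 effects differed by 0.45 (SE 0.14), which did not pass the adjusted threshold (interaction, adjusted p = 0.117). Of 11 follicle cell markers 6 were lower by 1.5-fold and 0 higher in CAKO than in wildtype, against 2.30% and 3.89% of all genes. Their summed levels were 14.32 to 16.05 against 16.70 to 17.41. In OvoD1 11 of 11 were lower by this rule than in wildtype, against 28.5% of all genes, and Vha100-5 was 1.10 higher. The part of follicle cells in the result was not tested.

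VhaM9.7-a was the higher one, at 0.22 (SE 0.06, adjusted p = 0.0492), a value close to the threshold that was lost without any 1 of 10 of the 12 arrays and was -0.03 after centring on muscle and photoreceptor genes. In the sterile comparison it differed by 0.21 (SE 0.06, adjusted p = 0.0691). Its knockout arrays were above the intact arrays in both.

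Vha36-3 was the only gene with an adjusted p below 0.05 in the sterile comparison, where 6.61% of all genes were higher and 6.05% lower. It was 0.48 or 1.39-fold higher in CAKO;OvoD1 (SE 0.11, adjusted p = 0.0232), lost without OvoD1 replicate 1 or 3 or CAKO;OvoD1 replicate 1 or 2 and in a fit of only the 2 genotypes (adjusted p = 0.0784), and it was 0.14 higher after centring on muscle and photoreceptor genes (adjusted p = 0.4). In fertile females it was 0.35 higher (SE 0.11, adjusted p = 0.0668), also with every CAKO array above every wildtype array, and the effects differed by 0.12 (95% confidence interval -0.22 to 0.47, adjusted p = 0.69). VhaAC45RP had differences of 0.22 (adjusted p = 0.319) and 0.15 (adjusted p = 0.443), and Vha100-4 of -0.14 (adjusted p = 0.802) and -0.09 (adjusted p = 0.822), with wide intervals of -0.51 to 0.23 and -0.46 to 0.29.

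**Figure D5:**
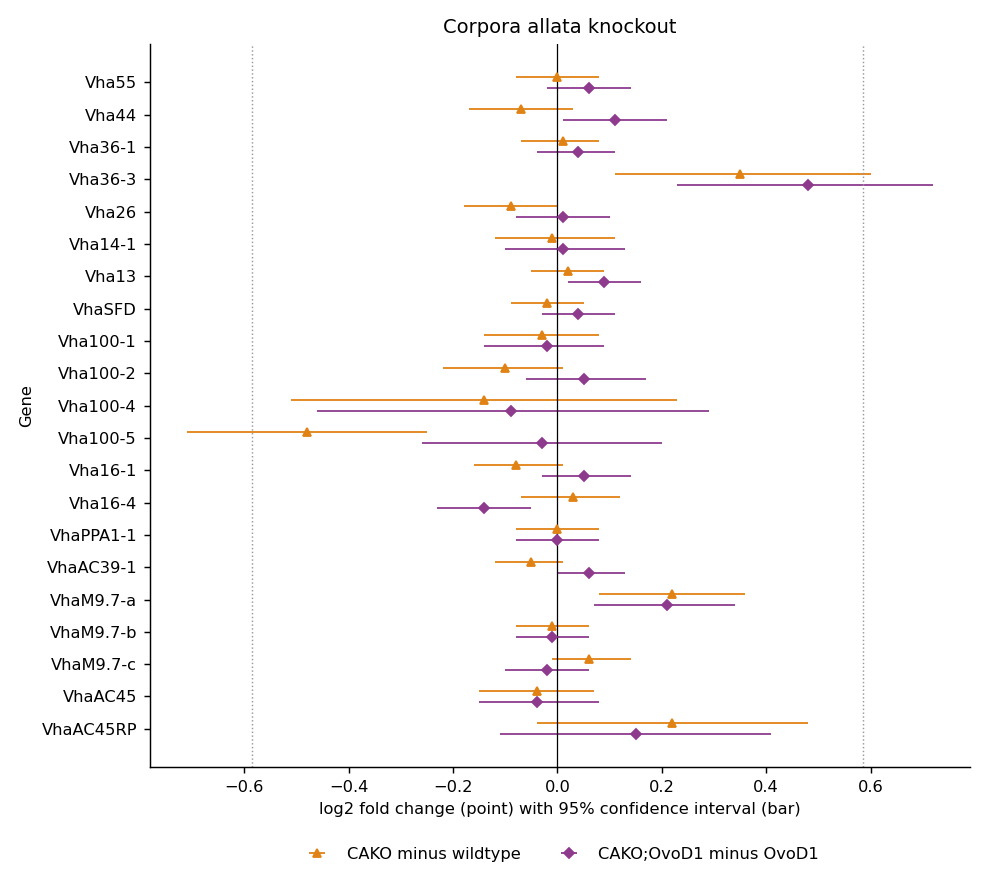
Log2 fold change (horizontal axis) of the 21 genes above the floor (vertical axis, in subunit order) for CAKO minus wildtype and CAKO;OvoD1 minus OvoD1 on the deposited scale; points are limma estimates, bars 95% confidence intervals, and dotted lines 1.5-fold. All points lie between -0.48 (Vha100-5, fertile) and 0.48 (Vha36-3, sterile), inside the dotted lines.

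After centring on muscle and photoreceptor genes, a shift of the knockout effects by -0.25 (fertile) and -0.34 (sterile), 14 of the other 16 genes were lower in CAKO and 16 of 16 in CAKO;OvoD1 at an adjusted p below 0.05, at -0.35 to -0.18 and -0.48 to -0.23. Median centring moved the effects by only -0.01 and -0.03. Summed muscle markers rose by the knockout on the deposited scale, from 14.17 to 14.33 in wildtype to 14.67 to 14.78 in CAKO and from 14.77 to 14.88 in OvoD1 to 15.20 to 15.48 in CAKO;OvoD1. A test of whether the knockout acted differently in sterile and fertile females called 0 of 25 genes in either direction (limma, against 1.34% and 2.22% of all genes), with 4 higher and 1 lower at an unadjusted p below 0.05 (10.6% of all genes in each direction).

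Genes that work with the pump were taken from lists, on the deposited scale, each read against the share of all genes. Among the regulators, Mitf, the transcription factor of lysosomal genes, was 1.68-fold higher in OvoD1 than in wildtype (adjusted p = 0.000818) and 1.73-fold higher without corpora allata (adjusted p = 0.000587), with fertile and sterile knockout differences of 0.13 (adjusted p = 0.746) and 0.17 (adjusted p = 0.458). Rbcn-3B, a partner of the pump in its assembly, fell by 0.29 in the fertile comparison (log2 fold change -0.29, SE 0.04, adjusted p = 0.00191) and differed by -0.02 in the sterile one (adjusted p = 0.843), and the effects differed (interaction 0.27, SE 0.06, adjusted p = 0.0354).

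Lysosomal hydrolases and membrane proteins, which need the acid lumen, were called higher for 11 of 18 genes in OvoD1 than in wildtype and for 10 of 18 without corpora allata, with 0 lower and median differences of 0.94 and 0.78, against 25.0% and 25.3% of all genes called higher. In CAKO 2 of the 18, Gal and Lerp, were called higher than in wildtype and 0 lower, against 3.89% and 2.30% of all genes. By the adjusted p alone 7 were higher and 1 lower there, against 8.03% and 7.34% of all genes. In the sterile comparison 0 were called by limma, and 1 was higher and 1 lower by the adjusted p alone (6.61% and 6.05% of all genes). At an unadjusted p below 0.05, 3 were higher and 3 lower (14.9% and 13.1%). Lerp, the receptor that sorts lysosomal enzymes, was 1.54-fold higher in the fertile (adjusted p = 0.000839) and 1.21-fold in the sterile comparison (adjusted p = 0.0505). The cysteine protease gene CtsF went in opposite directions, at 0.25 (adjusted p = 0.000753) and -0.14 (adjusted p = 0.0193), and the difference passed the test (interaction -0.39, adjusted p = 0.00186). spin, a lysosomal membrane transporter, was 1.4-fold lower in CAKO (log2 -0.49, adjusted p = 0.000484).

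Partners of the V-ATPase in epithelial ion transport were called higher for 12 and lower for 2 of 22 genes in both comparisons of sterile with fertile females. Of all genes, 25.0% were called higher and 28.5% lower with corpora allata, and 25.3% and 26.5% without. By knockout 1 of the 22 was called higher in the fertile and 2 in the sterile comparison, with 0 lower and median differences of 0.08 and 0.05. Of all genes 3.89% and 2.26% were called higher there and 2.30% and 2.19% lower. By the adjusted p alone 7 and 4 were higher and 0 lower. Of all genes 8.03% and 6.61% were higher by this rule, and 7.34% and 6.05% lower. At an unadjusted p below 0.05, 10 were higher and 3 lower in the fertile comparison (13.8% and 14.5% of all genes). In the sterile comparison 6 were higher and 2 lower (14.9% and 13.1%). Nhe1, a sodium-proton exchanger, was 1.76-fold higher in CAKO than in wildtype (adjusted p = 0.000182) and 2.07-fold higher in CAKO;OvoD1 than in OvoD1 (adjusted p = 9.92e-05). Irk3, a potassium channel of the Malpighian tubule, was 1.3-fold (adjusted p = 0.00898) and 1.69-fold higher (adjusted p = 0.000517), and CAH2, a carbonic anhydrase, 1.49-fold (adjusted p = 0.00104) and 1.41-fold higher (adjusted p = 0.00353). Of the synaptic vesicle transporters that the proton gradient drives, 2 of 4, Vmat and VAChT, were called higher in sterile females in both comparisons. Of the 4 tested, 3 lay above the floor, and prt lay at it, where a change cannot be read. Of all genes 25.0% and 25.3% were called higher there. In either knockout comparison 0 of 4 were called by limma. At an unadjusted p below 0.05 there were 0 in the fertile and 2 in the sterile comparison, both higher (14.9% of all genes).

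In the mitochondrial F-type ATP synthase, a rotary enzyme of the same build that makes ATP, 0 of 14 genes were called by limma in any of the 5 contrasts. Of these 14 genes, 12 lay above the floor on all arrays. At an unadjusted p below 0.05 there were 0 higher and 3 lower in each comparison of sterile with fertile females, where 33.9% of all genes were higher and 38.3% lower with corpora allata and 35.7% and 36.0% without. The 3 also passed the adjusted p. There were 2 lower in the fertile and 1 higher in the sterile knockout comparison, and 1 higher for the difference between these. Of all genes 14.5% were lower in the fertile comparison, 14.9% higher in the sterile one and 10.6% higher for the difference. The median differences between sterile and fertile females were -0.02 and -0.00. ATPsynC, which encodes its ring subunit, differed by -0.44 in OvoD1 against wildtype (adjusted p = 3.84e-07) and by -0.13 in CAKO against wildtype (adjusted p = 0.0126).

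Endosome to lysosome fusion genes were called lower for 3 of 9 (Vps11, Vps39 and Vps8) and higher for 0 in both comparisons of sterile with fertile females, a share lower that lies near the 28.5% and 26.5% of all genes. By knockout 0 of the 9 were called by limma, with 2 lower in the fertile and 0 in the sterile comparison at an unadjusted p below 0.05. Of all genes 14.5% and 13.1% were lower at that p. Of 23 autophagy genes 3 were called higher and 1 lower with corpora allata, and 4 higher and 1 lower without. These shares lie below those of all genes, 25.0% and 28.5% with and 25.3% and 26.5% without. Atg8a, the ubiquitin-like protein of the autophagosome membrane, was 0.19 (adjusted p = 0.00398) and 0.13 higher (adjusted p = 0.0297) in the fertile and sterile knockout comparisons. By the adjusted p alone 1 autophagy gene was higher and 2 lower in the fertile comparison, against 8.03% and 7.34% of all genes. The lower ones were Atg1 and Atg101, the latter at -0.30 (adjusted p = 0.0288). In the sterile comparison 1 was higher and 1 lower, against 6.61% and 6.05%. The lower one was Atg4a at -0.23 (adjusted p = 0.0342). By 1.5-fold 0 of 23 were called in either. At an unadjusted p below 0.05, 2 were higher and 5 lower in the fertile comparison (13.8% and 14.5% of all genes). In the sterile comparison 5 were higher and 3 lower (14.9% and 13.1%).

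Genes of amino acid sensing at the lysosome were called lower for 6 of 18 in both comparisons of sterile with fertile females and higher for 2 with and 1 without corpora allata. The share lower again lies near that of all genes, 28.5% and 26.5%. By knockout 0 of the 18 were called by limma at 1.5-fold. By the adjusted p alone 1 was higher and 2 lower in the fertile comparison (8.03% and 7.34% of all genes), and 0 in the sterile comparison. At an unadjusted p below 0.05, 3 were higher and 5 lower in the fertile comparison (13.8% and 14.5%). In the sterile comparison 1 was higher and 1 lower (14.9% and 13.1%). Lamtor3, part of the complex that anchors TORC1 to the lysosome, was 0.37 higher in CAKO (adjusted p = 4.07e-05) and 0.04 higher in CAKO;OvoD1 (adjusted p = 0.352), and the effects differed (interaction -0.33, adjusted p = 0.00205). The TORC1 kinase gene mTor and its target S6k were the 2 lower ones, at -0.38 (adjusted p = 0.0161) and -0.28 (adjusted p = 0.0112) in CAKO and at -0.11 (adjusted p = 0.432) and -0.12 (adjusted p = 0.235) in CAKO;OvoD1.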

How the data were processed

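Whole-female mRNA was measured on 12 arrays, 3 per genotype, grouped by the genotype in the labels. The authors quantile normalized the arrays, processed them with GC-RMA and deposited log2 values. No GC-RMA version is stated in the sources read, and the values were not changed. Precision is limited by the number of arrays. Of 18952 probe sets, 13647 had 1 annotated gene, 402 had several and 4903 had no gene. A filter removed probe sets whose mean lay in the lowest quartile (25%) of every genotype and kept 13871, for 9968 genes. The 4 genotypes were fitted together with limma 3.58.1 in R 4.3.3 (lmFit, eBayes with trend, 8 residual degrees of freedom), in place of the methods' t-test per pair, which was run as an alternative. Tests were two-sided, with the Benjamini-Hochberg adjustment made across the 13871 probe sets. Tested on simulated data for the fertile comparison over 13871 probe sets, the fit with the 1.5-fold threshold recovered 0% of 1.25-fold, 50% of 1.5-fold, 94% of 2-fold and 100% of 4-fold changes. For changes of 1.25- and 1.5-fold the threshold itself limits recovery. By the adjusted p alone the fit recovered 34%, 68%, 94% and 100%, with 10 false calls. Names of all 31 members matched the RefSeq gene table (Release 6), used only for names and neighbours. Whether a probe set also reads a paralog was not tested. The members, subunit order and gene lists were chosen with earlier results of these data known. Full values are given for members above the floor with an adjusted p below 0.05 and no overlap between arrays in at least 1 contrast. They are also given for the paralogs of these members above the floor. Up to 3 genes per list are named by the smallest adjusted p in the fertile or sterile comparison, beside list members counted as called. The labels call replicates biological.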

Additional observations from a re-analysis of the deposited data

How the results depend on the processing

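The counts of 5 genes higher and 0 lower in sterile females were the same without each single array (5 to 5 and 0 to 0), with the methods' t-test, other filters, array weights, no variance trend and fits of 2 genotypes, and the knockout counts of 0 also held there except that 1 gene was called lower in CAKO without wildtype replicate 1 (range 0 to 1). With no fold threshold the counts were 1 higher and 1 lower (fertile), 1 higher (sterile), 13 higher and 1 lower (OvoD1 with corpora allata) and 16 higher and 2 lower (without). At 1.2-fold, 1 was lower in the fertile and 1 higher in the sterile comparison. Median centring gave 9 and 11 higher in sterile females and turned Vha13 to 0.22 and 0.28 and VhaM9.7-c to 0.22. Centring on muscle and photoreceptor genes gave 3 and 2 higher and 15 and 18 lower, of which 11 and 14 were above the floor, and 1 lower in the fertile comparison. It turned, with corpora allata, Vha36-1 to -0.57, Vha14-1 to -0.61, VhaSFD to -0.50, Vha100-1 to -0.54, Vha16-1 to -0.67, Vha16-4 to -0.55, VhaM9.7-b to -0.59 and VhaAC45 to -0.53, without corpora allata, Vha44 to -0.58, Vha36-1 to -0.63, Vha14-1 to -0.68, VhaSFD to -0.53, Vha100-1 to -0.63, Vha100-2 to -0.73, Vha16-1 to -0.63, VhaM9.7-b to -0.68 and VhaAC45 to -0.62, and in the fertile comparison VhaM9.7-a to -0.03. The probe set with the lower mean turned Vha16-1 to -0.18 and -0.33. Which scaling is nearer to the RNA per fly was not tested.

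Same-numbered arrays were at most weakly correlated (18 correlations of deviations, -0.159 to 0.149, 2 above 0.1). Of the 18, 11 were highest with their own number, so a weak pairing is not excluded. With the replicate number as a block the counts of 5 and 0 were the same, and 2 of 33 gene results lost their adjusted p below 0.05. The fits of 2 genotypes and the t-test give no interaction value.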

Other observations

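Outside the naming rule, 2 genes belong to the same pump by their names or synonyms. ATP6AP2, the accessory protein also known as the prorenin receptor, differed by -0.15 in CAKO against wildtype (SE 0.03, limma adjusted p = 0.0115), by -0.05 in CAKO;OvoD1 against OvoD1 (adjusted p = 0.393), and by 0.22 (adjusted p = 0.000127) and 0.32 (adjusted p = 9.12e-06) in sterile against fertile females with and without corpora allata, on the deposited scale. CG5421, which has VhaAC45-2 as a synonym in the gene table, lay at the floor of 2.13 on all arrays.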
